A study of Homo sapiens with 24 samples.

Results

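The chromosome 8 regions of H3K27ac were taken as every region that the 6 deposited tables place on human chromosome 8, 8940 of 171345 regions in all. In the tables that compared shANCO1 with shCTRL cells, 2425 of 50284 regions in 10A and 2735 of 44790 in DCIS lay there. In the tables against input, the chromosome held 1285 of 28607 regions in 10A shANCO1 cells and 684 of 15490 in 10A shCTRL cells. The same tables for DCIS held 918 of 16692 regions in shANCO1 cells and 893 of 15482 in shCTRL cells. The chromosome name alone chose the members. Because this chromosome was singled out with results of these data known, its shares are given as descriptions beside those of all regions, with no test between them.

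H3K27ac is acetylation of lysine 27 on histone H3, a mark laid down by the acetyltransferases p300 and CBP on nucleosomes at active promoters and enhancers. Chromosome 8 is one of the chromosomes most often rearranged in breast cancer. Its short arm, 8p, carries the death receptor cluster and several loci described as tumour suppressors, and near the centromere the FGFR1 segment. Its long arm, 8q, carries MYC, which encodes a growth-promoting transcription factor and lies in a wide stretch of distal enhancers and long noncoding RNA genes such as PVT1, CCAT1 and PCAT1.

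ChIP-seq sequences the DNA pulled down with an antibody to a chromatin protein, here H3K27ac, and input is the sonicated chromatin before the pull-down. There were 24 libraries by the labels, made from 2 lines (10A and DCIS), each with 1 of 2 lentiviral hairpins (shANCO1 or shCTRL), as H3K27ac or input, with 3 libraries in each of the 8 groups. 10A, MCF10A in full, is a non-tumorigenic human mammary epithelial line, and DCIS, MCFDCIS in full, descends from it and serves as a model of ductal carcinoma in situ. shANCO1 cells carried 1 hairpin against ANKRD11, the gene of the ANCO1 protein, shCTRL cells carried a hairpin against GFP, and all cells had been infected, selected in puromycin and grown in the same serum and growth factor medium. The labels do not say whether the 3 libraries of a group came from separate cultures. ANKRD11 lies on another chromosome, and the tables hold no RNA, so the knockdown itself was not checked here.

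The authors' tables give 1 line per region, with the log2 fold change of a representative window, a false discovery rate (FDR) over all regions of the table, and the numbers of tested windows that rose or fell. They hold no value per library, so the spread between replicates and the depth behind a region were unknown, and no interval is given. A region is called up or down here where the deposited FDR was under 0.05 with that direction, and the rule says nothing of how large the change was. The zero of the scale depends on a normalization that was not stated. Over all regions the median log2 fold change of shANCO1 over shCTRL was 0.76 in 10A and 0.52 in DCIS, and values below are set against these 2 line medians. For the labelled cell type, 8 of 10 basal mammary markers carried a region enriched over input in 10A with either hairpin and 9 of 10 in DCIS, with KRT14 unmarked in all 4 tables. Of 6 luminal hormone-receptor markers, ESR1, GATA3, KRT8 and KRT18 carried one in all 4 tables, FOXA1 in shANCO1 cells of both lines only, and PGR in none. Of 3 endothelial markers PECAM1 carried one in all 4 tables, and the 4 leukocyte markers had none. Of the fibroblast markers, 2 of 5, PDGFRB and DCN, were enriched in 10A shANCO1 cells against 0 of 5 elsewhere. The part of these genes in the results was not tested.

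The length of chromosome 8 marked over input was larger with the shANCO1 hairpin in 10A and about equal with either hairpin in DCIS. Every region listed against input on chromosome 8 was called enriched by the deposited FDR, where the share over all regions of a table was 100% to 3 digits, with 2 of 15482 not called in DCIS shCTRL cells, so that these tables serve as lists of marked regions. In 10A the marked regions of chromosome 8 covered 1.10 Mb in shANCO1 cells and 0.423 Mb in shCTRL cells, a ratio of 2.59, where all chromosomes together gave 2.79. In DCIS they covered 0.730 Mb in shANCO1 cells and 0.742 Mb in shCTRL cells, a ratio of 0.984, where all chromosomes gave 1.08. The DCIS comparison depended on the limit, since at an FDR under 1e-10 chromosome 8 held 781 regions in shANCO1 and 560 in shCTRL cells, against 939 and 313 in 10A. The arms differed in this ratio. It was 3.03 on 8p and 2.40 on 8q in 10A, and 1.25 on 8p and 0.889 on 8q in DCIS, so that the marked length of 8q was smaller in DCIS shANCO1 cells than in DCIS shCTRL cells. Of the regions marked in 10A shCTRL cells, 93.4% overlapped a region marked in 10A shANCO1 cells, and 40.9% of the latter overlapped one of the former, close to the 94.3% and 41.7% of all chromosomes. In DCIS these shares were 68.8% and 63.6%, where all chromosomes gave 71.8% and 64.6%. Between the lines, 34.5% of the DCIS shCTRL regions overlapped a 10A shCTRL region and 68.8% of the DCIS shANCO1 regions a 10A shANCO1 region, against 42.6% and 75.9% over all chromosomes. In the other direction, 49.9% of the 10A shCTRL and 47.8% of the 10A shANCO1 regions overlapped a DCIS region of the same hairpin, against 45.5% and 41.0%. The regions were called table by table, and the depth of each table is unknown, so the lengths move with how much was called as well as with the mark.

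Between shANCO1 and shCTRL cells, chromosome 8 gained H3K27ac in 10A almost without loss, and in DCIS it both gained and lost. In 10A, 988 of 2425 regions were up, 40.7%, where the share over all regions was 43.6%. Only 8 regions were down, 0.330%, where the share over all regions was 0.225%. The median log2 fold change was 0.75, within 0.015 of the line median. In DCIS, 687 of 2735 regions were up, 25.1%, against 23.6% of all regions, and 191 were down, 6.98%, against 4.86%. The median in DCIS was 0.39, which is 0.13 below the line median. Among the 23 chromosomes compared, chromosome 8 ranked 2nd by the number of down regions and 4th by their percent in DCIS, and 3rd from the lowest by the percent of up regions in 10A.

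The size of the change differed between the lines. Up regions of chromosome 8 had a median log2 fold change of 1.08 in 10A and 1.75 in DCIS, and down regions of -1.04 and -1.79. In 10A, 94 of the 988 up regions lay at or below the line median, so that they would not count as up relative to the other regions of the line, and 25 lay more than 1 above it. In DCIS all 687 up regions lay above the line median and 468 lay more than 1 above it. In 10A up regions had a median width of 1700 bp, against 600 bp for regions not called. Of these up regions 25% lay within 1 kb of a protein-coding transcription start site (TSS), against 13.7% of regions not called. The share was 18.3% over all tested 10A regions of the chromosome and 24.5% over those of all chromosomes. In DCIS up regions had a median width of 1000 bp, and 5.09% lay at a TSS, against 10.5% of down regions and 24.1% of regions not called.

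Most up regions of 10A lay over chromatin marked in the shANCO1 cells, and most up regions of DCIS lay over no marked region, with shares close to those of all regions. In 10A, 69.1% of the up regions overlapped a region marked in shANCO1 cells, 32.0% one marked in shCTRL cells, and 30.9% neither, where the shares over all up regions of the line were 70.0%, 34.6% and 29.9%. In DCIS, 36.8% of the up regions overlapped a region marked in shANCO1 cells and 62.9% overlapped neither list, against 38.4% and 61.5% of all up regions. Of the DCIS down regions, 52.9% overlapped a region marked in shCTRL cells and 18.3% one marked in shANCO1 cells, against 50.1% and 16.6% of all down regions. Regions not called lay over neither list in 75.6% of cases in 10A and 70.3% in DCIS. The tables share libraries, so these overlaps are descriptions.

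Along the chromosome, the gain in 10A was spread over both arms, whereas in DCIS the percent of up regions was higher on 8p than on 8q, and most down regions lay on 8q beyond its first 10 Mb. The arms were divided at 45 Mb, inside the stretch around the centromere from 43505500 to 47260201 bp where no region was tested. In 10A, 375 of 822 regions of 8p were up, 45.6%, with a median log2 fold change of 0.81, and 613 of 1603 regions of 8q, 38.2%, with a median of 0.72. The 8 down regions of 10A comprised 2 on 8p and 6 on 8q. In DCIS, 284 of 863 regions of 8p were up, 32.9%, and 37 were down, 4.29%, with a median of 0.76. On 8q in DCIS, 403 of 1872 regions were up, 21.5%, and 154 were down, 8.23%, with a median of 0.24. Relative to the line median the 2 arms lay on opposite sides in both lines, at 0.043 for 8p and -0.045 for 8q in 10A and at 0.23 and -0.28 in DCIS.

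**Figure D1:**
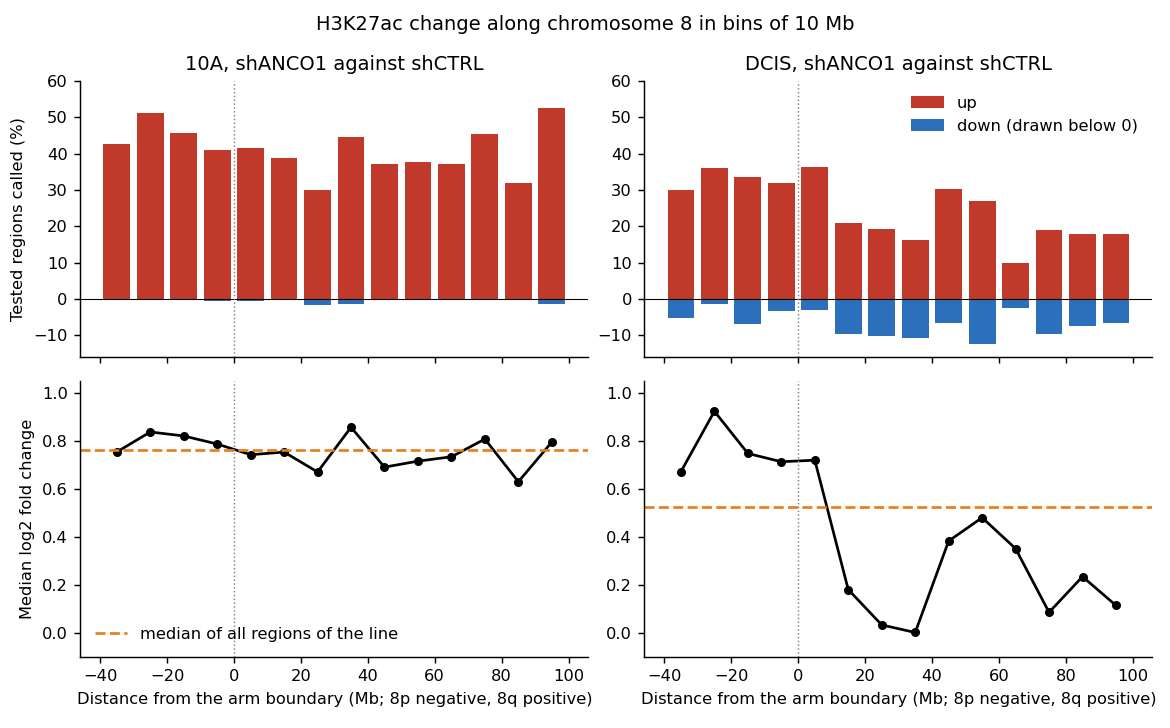
Upper panels plot the percent of tested regions called up (red, above 0) and down (blue, drawn below 0) in bins of 10 Mb, and lower panels the median log2 fold change per bin (points) with the median of all regions of the line (orange dashes), against the distance in Mb from the arm boundary, with 8p negative. The 10A medians stay near 0.76 along both arms, and the DCIS medians drop from 0.72 in the first 8q bin to 0.18 in the next and 0.0012 in the fourth, and lie at 0.38 in the fifth.

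The DCIS profile changed within 8q. From 45 to 55 Mb, 36.4% of 165 regions were up and 3.03% down, with a median of 0.72. In the next 3 bins of 10 Mb the percent up was 21.0, 19.1 and 16.2, the percent down 9.68, 10.3 and 10.8, and the median 0.18, 0.033 and 0.0012. From 85 to 95 Mb the percent up was again higher, at 30.1, with 6.62% down and a median of 0.38. From 95 to 105 Mb, 26.9% were up and 12.5% down, the highest percent down of the bins plotted. In 10A the percent up over the same chromosome ran from 29.9 between 65 and 75 Mb to 52.7 between 135 and 145 Mb. In both lines the arms differed mainly in regions without a TSS. In DCIS regions with a TSS were up in 7.91% of cases on 8p and 6.46% on 8q, and regions without one in 39.4% and 24.7%. In 10A the same shares were 55.8% and 55.6% with a TSS and 43.1% and 34.6% without. The segment from 120 to 130 Mb held 497 of the 1872 DCIS regions of 8q and 489 of the 1603 in 10A, and without it 24.1% of DCIS regions on 8q were up and 8.29% down, and 39.9% of 10A regions were up.

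Single megabases with at least 15 tested regions showed where the change was densest. In 10A, 35 of 52 regions between 23 and 24 Mb were up, 67.3%, and 25 of 38 between 11 and 12 Mb, 65.8%. The first of these holds LOXL2, SLC25A37 and the TRAIL receptor cluster. In DCIS, 12 of 15 regions between 32 and 33 Mb were up, 80%, with a median log2 fold change of 2.28, and these lie over NRG1. Between 54 and 55 Mb, 12 of 17 were up, and between 89 and 90 Mb, 16 of 25. The DCIS losses were densest between 96 and 97 Mb, where 10 of 17 regions were down, 58.8%, with a median of -1.82, and 8 of these 10 lie over SDC2.

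The megabase that holds MYC, 127 to 128 Mb, was the most densely tested in either line. Over all its tested regions, a smaller share was up and the median was lower than over the rest of the chromosome. It held 225 tested regions in 10A and 208 in DCIS, the most of any megabase of the genome in both tables, which covered 35.0% and 32.1% of its length. In 10A, 57 of the 225 regions were up, 25.3%, none was down, and the median was 0.51, against 42.3% and 0.76 over the rest of chromosome 8. In DCIS, 19 of the 208 were up, 9.13%, and 11 down, 5.29%, with a median of 0.0041, against 26.4% up and 0.45 over the rest. Input-enriched regions lay under 23.6% of the tested regions there in 10A and 22.6% in DCIS, against 44.7% and 34.1% over the rest of the chromosome. The lower share of up regions is therefore not shown to hold among marked regions alone, which were not compared apart. The megabase held 62 enriched regions in 10A shANCO1 cells, 55 in 10A shCTRL cells, 42 in DCIS shANCO1 cells and 39 in DCIS shCTRL cells, which ranked it 4th, 1st, 7th and 7th among the megabases of the genome with an enriched region. The neighbouring megabases held far fewer tested regions, with 30 and 40 between 126 and 127 Mb and 49 and 32 between 128 and 129 Mb in 10A and DCIS.

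**Figure D2:**
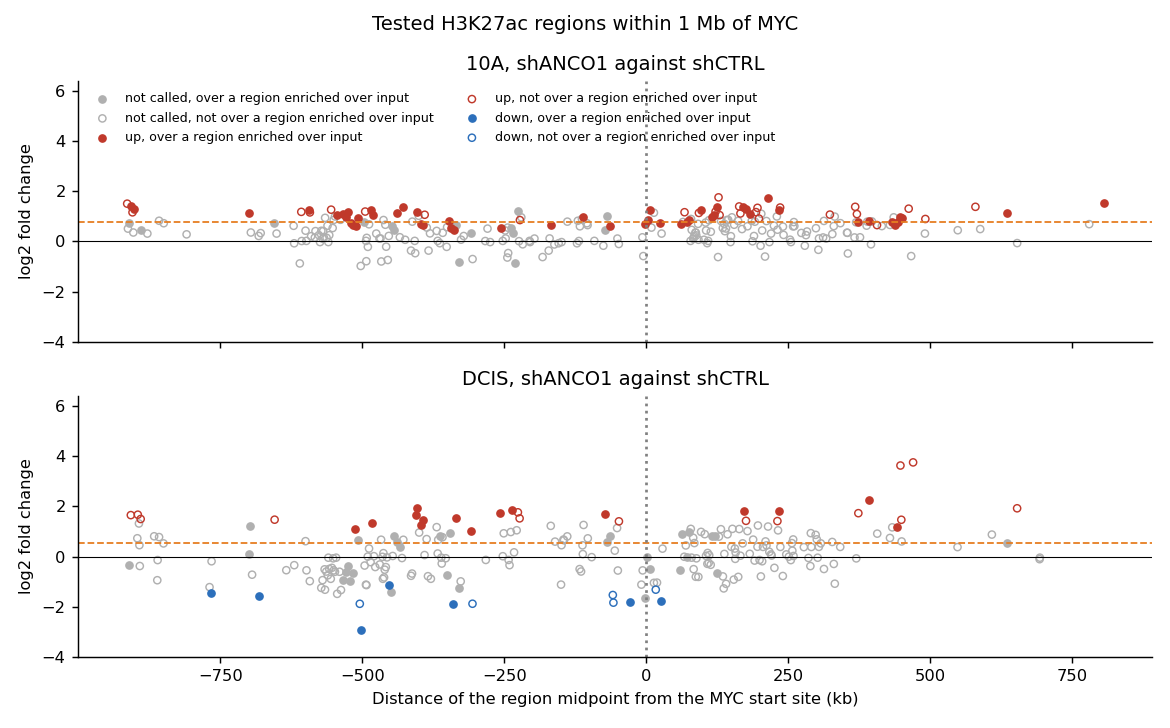
Each point is a tested region within 1 Mb of the MYC start site, plotted by the distance of its midpoint in kb and its log2 fold change of shANCO1 over shCTRL, and it is filled where it overlaps a region enriched over input with either hairpin, with the line median as orange dashes. In 10A all called regions are red (up), whereas in DCIS blue (down) regions lie on both sides of the start site and most red ones lie more than 150 kb away.

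Over MYC itself, 10A gained H3K27ac and DCIS showed no call. MYC spans chr8:127735434-127742951 on the plus strand (GRCh38). In 10A, 3 of its 4 regions were up. The region over the start, chr8:127731501-127735800, had a log2 fold change of 0.70 (FDR 0.00276), with 4 of 39 windows up, and lies just below the line median. The region over the gene body, chr8:127735701-127740000, had 0.85 (FDR 0.000399), with 37 of 42 windows up, and the next piece had 1.24 (FDR 0.00162). In DCIS the 3 regions had log2 fold changes of -1.66, -0.0073 and -0.49 with FDRs of 0.12, 0.998 and 0.764. A region 23767 bp downstream of the start site, at chr8:127759201-127761500, was up in 10A at 0.76 (FDR 0.00143), and its DCIS counterpart was down at -1.78 (FDR 0.00831). Between 127.7 and 127.8 Mb, where the gene lies, 5 of 10 regions were up in 10A, and 0 of 13 were up and 3 down in DCIS, with a median of -1.04.

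The strongest mark of chromosome 8 over input lay in the flanks of MYC in 3 of the 4 tables, and in 10A shCTRL cells at chr8:29667601-29669400, at 8.21. The largest enrichment in DCIS was at chr8:127291801-127295600 in shCTRL cells, a log2 fold change over input of 9.99, within the long noncoding genes CASC8 and PCAT1 by the deposited annotation. The widest marked region of DCIS shCTRL cells, chr8:127217801-127222400, was 9.58 over input, and its counterpart in DCIS shANCO1 cells, chr8:127218101-127222400, was 9.60. Both overlap CCAT1 and CASC19, and in 10A shCTRL cells the widest marked region, chr8:127216801-127221600, lay at the same place at 4.44 over input. Values over input cannot be set against each other between tables, because their normalization and depth were not stated.

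The loci around MYC overlap one another, so their counts share regions. Of the 19 genes listed for this domain, CASC21 and CCAT1 had no GENCODE gene on chromosome 8 under that name. In 10A, 16 of the 17 others with a tested region had an up lead region, the lead being the region of lowest FDR over the gene or 5 kb upstream, and 3 of these 16 (CCAT2, GSDMC and LRATD2) lay at or below the line median. In DCIS the 16 genes with a region had 6 up, 7 down and 3 uncalled leads. At least 1 up region was present in 94.1% of the 17 genes in 10A and in 75% of the 16 in DCIS. At least 1 down region was present in 50% of the 16 in DCIS. Of the tested coding genes of 8q, 69.9% had an up region in 10A, and 32.1% an up and 13.0% a down region in DCIS. The listed genes overlap and share regions, so these shares are not like for like. CASC8, CCAT2, PCAT1 and POU5F1B share 1 of the down leads, so that the 13 distinct leads held 6 up and 4 down regions, and the median was -1.24 over the genes and 0.45 over the distinct leads. Over the 310 distinct regions of the list in 10A, 29.4% were up with a median of 0.61, and over the 280 in DCIS, 13.2% were up and 3.57% down with a median of 0.084. These shares were below those of all regions, 43.6% up in 10A and 23.6% up and 4.86% down in DCIS. PVT1, whose RNA lies beside MYC and is co-gained with it in tumours, had 34 of 116 regions up in 10A and 9 of 98 up in DCIS. Its strongest DCIS region, chr8:128126301-128129100, rose by 2.25 (FDR 5.61e-10), the region nearest its start had -0.55, and the largest value in the gene was 3.63 at chr8:128182701-128183300. Upstream of MYC, DCIS had both gains and losses. The region chr8:127392901-127398000, over CCAT2, CASC8 and the POU5F1B gene, was down at -1.89 (FDR 5.26e-08) in DCIS, with 34 of 50 windows down, although the region nearest the CCAT2 start had 1.54 (FDR 0.00171). The 10A region at the same place as the loss had 0.46 (FDR 0.0398), which is below the line median. The largest loss of the domain, -2.93, was at chr8:127232401-127235800 over PCAT1 and CASC19. Farther along 8q24, ASAP1, which encodes a GTPase-activating protein for Arf, held the largest gain with at least 5 windows on the chromosome in DCIS. Its region chr8:130262101-130266100 rose by 5.05 (FDR 3.38e-13) with 39 of 39 windows up, and it was marked in shANCO1 cells and not in shCTRL cells. Of the 29 regions of ASAP1 in 10A, the one with the lowest FDR rose by 1.00 (FDR 0.00112).

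The regions of largest change in 10A were mostly intergenic or intronic. The largest gain with at least 5 windows was chr8:48280301-48281700, with a log2 fold change of 2.44 (FDR 6.02e-09) and 13 of 13 windows up, 271886 bp from the nearest coding TSS, that of UBE2V2. Next came regions in DNAJC5B at 2.07, at the start of NKAIN3 at 2.06 and in an intron of NRG1 at 1.99 (FDR 4.60e-07). The DNAJC5B and NKAIN3 regions overlapped no region marked in either 10A table, and the DNAJC5B region had 4 of 8 windows up. The promoter of RBPMS, which encodes an RNA-binding protein, rose by 1.91 (FDR 7.56e-09) with 20 of 25 windows up. The 8 down regions of 10A ran from -1.33 to -0.88. They lay at 2 places in PARP10, in SPIDR, in NRG1, at the start of ZNF704, at 2 places in LINC01592 and at chr8:40205501-40205700 with a single window. The PARP10 region at -1.33 (FDR 0.0337) had 2 windows up and 2 down of 31.

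In DCIS the region with the lowest FDR lay next to LY6D, which encodes a GPI-anchored surface protein of stratified epithelia. The region chr8:142787901-142790400 rose by 3.64 (FDR 3.90e-18) with 23 of 23 windows up, and the only 10A region of the gene had 0.63 (FDR 0.406). Other large gains with at least 5 windows were in RP1 at 4.45, in STK3, a kinase of the Hippo pathway, at 4.37, at chr8:89257801-89260000 with no coding gene at 4.25, and in LINC01301 at 4.05. The regions in RP1 and at chr8:89257801-89260000 were marked in shANCO1 and not in shCTRL cells. Those in STK3 and LINC01301 overlapped no region marked in either DCIS table. The largest losses with at least 5 windows were in SDC2, at -3.80 and -3.60, and at chr8:68852301-68855700, at -3.36. The down region with the lowest FDR, chr8:58255701-58256100, had -6.99 (FDR 1.52e-10) but 3 windows. Broad losses lay at chr8:126495501-126499100, at -2.53 with 31 of 35 windows down, and in DPYS, which encodes dihydropyrimidinase, at -2.41 (FDR 2.88e-10) with 35 of 40 windows down. Both were marked in shCTRL cells and not in shANCO1 cells.

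Genes with many tested regions changed along their length. NRG1 encodes neuregulin-1, a ligand of the receptors ERBB3 and ERBB4, and spans chr8:31639222-32855666. In DCIS 13 of its 16 regions were up and none down, with log2 fold changes from 0.74 to 3.68 and a median of 2.24. In 10A 10 of its 37 regions were up and 1 down, from -1.15 to 1.99 with a median of 0.71. The single 10A loss, at chr8:32309201-32310800 (-1.15, FDR 0.0192), lay where DCIS rose by 2.83 (FDR 4.30e-07). LOXL2 encodes a lysyl oxidase that crosslinks collagen. In 10A 7 of its 8 regions were up, from 0.81 to 1.58 over all 8, and in DCIS 6 of 8, from -0.60 to 4.03. The strongest DCIS region, chr8:23354601-23357200 in an intron, rose by 4.03 (FDR 3.57e-14) and was marked in shANCO1 and not in shCTRL cells.

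SDC2 and DPYSL2 went the other way in DCIS. SDC2 encodes syndecan-2, a transmembrane heparan sulfate proteoglycan, at chr8:96493813-96611790. In DCIS 8 of its 9 regions were down, from -3.80 to -1.12 over all 9 with a median of -3.05, and the promoter region chr8:96493201-96495200 was down at -3.60 (FDR 2.72e-08) with 17 of 17 windows down. The promoter region overlapped no region marked in either DCIS table, and 2 of the 9 overlapped one marked in shCTRL cells. In 10A no region of SDC2 was tested. DPYSL2, which encodes a protein that binds tubulin and shapes the cytoskeleton, had 5 of 7 regions up in 10A, with a highest value of 1.68 (FDR 5.52e-06). In DCIS 5 of its 11 regions were down and none up, from -2.46 to 1.36 with a median of -1.53.

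**Figure D3:**
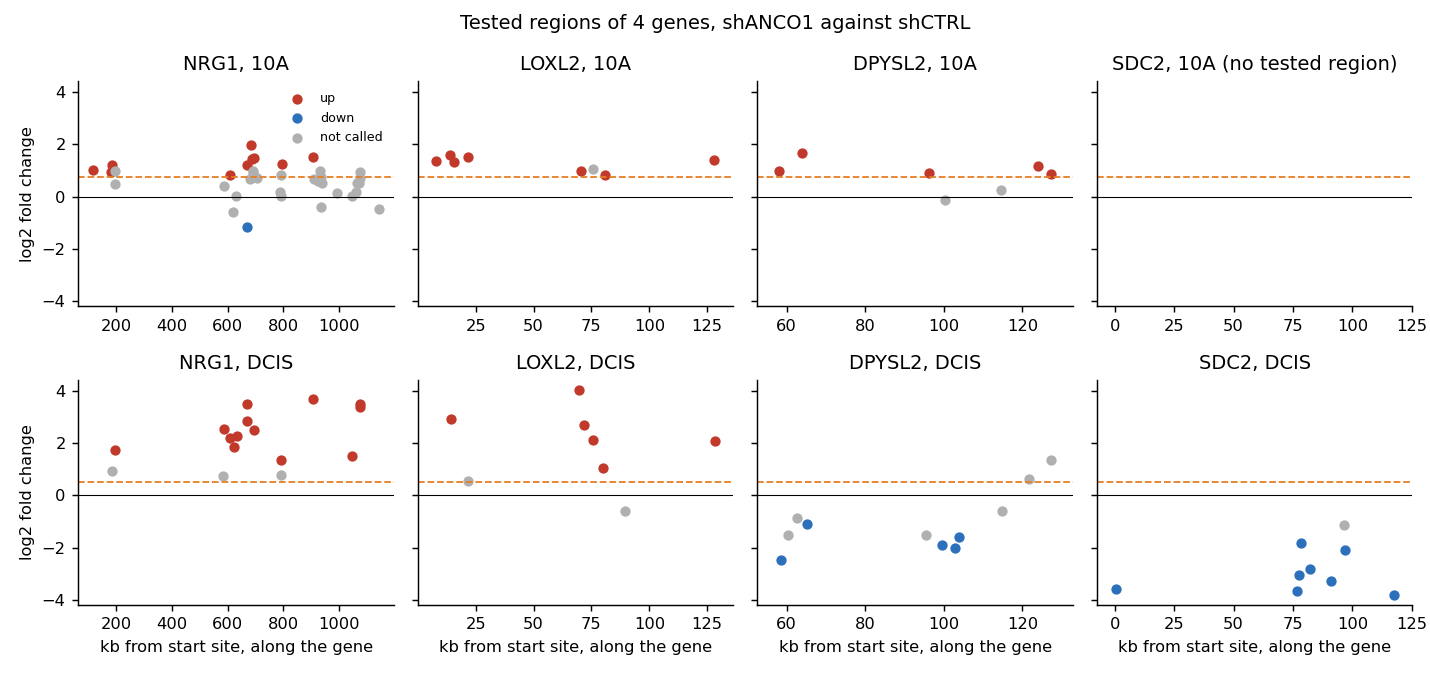
Each point is a tested region of NRG1, LOXL2, DPYSL2 or SDC2, plotted by the distance of its midpoint from the start site along the gene in kb and its log2 fold change, in 10A (upper panels) and DCIS (lower panels), with the line median as orange dashes. NRG1 and LOXL2 are mostly red (up) in DCIS, at medians of 2.24 and 2.09, DPYSL2 has red points in 10A and blue (down) points in DCIS, and SDC2 has no tested region in 10A and 8 blue points in DCIS.

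Other long genes gained at many places in both lines. DOCK5, an activator of Rac, had 13 of 21 regions up in 10A and 12 of 16 in DCIS. EXT1, a heparan sulfate polymerase subunit, had 13 of 25 and 9 of 21. PTK2B, a kinase related to focal adhesion kinase, had 9 of 14 and 5 of 8, with a highest value of 1.90 in 10A and 2.49 in DCIS. STK3 had 5 of 17 and 9 of 14. CSGALNACT1 had 6 of 14 up in 10A, and 10 of 23 up and 1 down in DCIS. PLEC, the gene of the cytolinker plectin, had 9 of 13 up in 10A and 1 of 13 in DCIS, where the median of its regions was 0.45. Losses in DCIS grouped in COL14A1 (4 of 12 regions down), SCARA5 (5 of 8), DPYS (3 of 3), SLC45A4 (3 of 8) and ZFAT (3 of 11, with 1 up). These genes were chosen by their number of called regions, so the counts describe them and test nothing.

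Of the 701 protein-coding genes of chromosome 8, 466 had a tested region in 10A and 486 in DCIS. In 10A 338 genes had an up region, 72.5%, where 72.7% of tested coding genes of the genome did, and 4 had a down region, 0.858%, where 0.458% did. In DCIS 173 genes had an up region, 35.6%, against 27.7% of tested coding genes, and 49 had a down region, 10.1%, against 5.73%. By arm, 42.6% of the tested genes of 8p in DCIS had an up region and 4.32% a down region, and on 8q 32.1% and 13.0%. Among 449 genes tested in both lines, 135 had an up region in both, 194 in 10A alone, 30 in DCIS alone and 90 in neither. Of these genes 29 had an up region in 10A and a down region in DCIS. The counts across both lines were not made over all chromosomes, so they are not shown to be particular to chromosome 8.

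The 161 listed genes of chromosome 8 were examined by their lead regions. In 10A, 113 had a tested region, of which 91 had an up lead, 80.5%, and none a down lead, and 11 of the 91 lay at or below the line median. Of all tested coding genes of the chromosome, 72.5% had an up region in 10A. In DCIS, 121 had a tested region, with 55 up, 14 down and 52 uncalled leads. An up region of any rank was present in 50.4% and a down region in 14.9% of the 121, against 35.6% and 10.1% of all tested coding genes of the chromosome. These shares are not like for like, because a gene with more regions has more chances of a call. The 121 genes held 862 region placements, of which 175 were up and 37 down, and the coding genes had a median of 2 regions. By region, 25.1% of the chromosome was up and 6.98% down in DCIS. The list also holds noncoding genes. Overlapping genes share leads, and the 121 DCIS leads were 114 distinct regions.

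**Figure D4:**
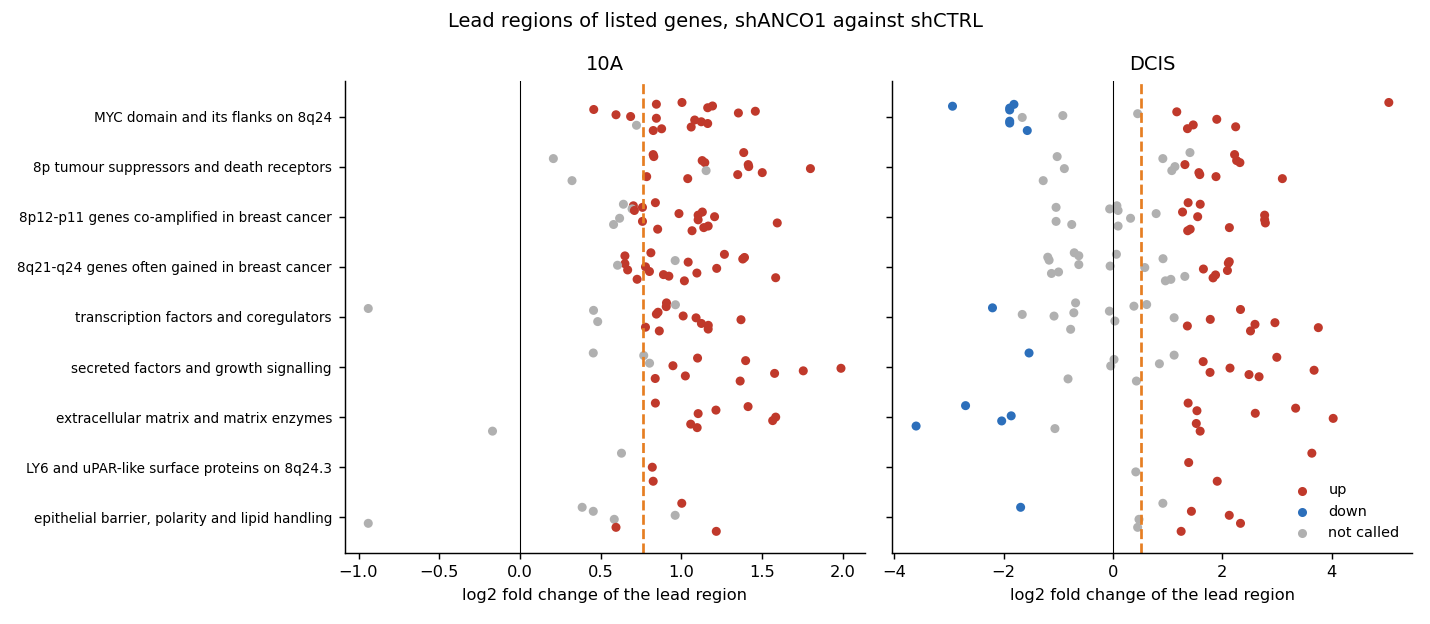
Each point is the lead region of a listed gene, plotted by its log2 fold change of shANCO1 over shCTRL in 10A (left) and DCIS (right), with a row per list, the line median as orange dashes, and red for up, blue for down and grey for not called. In 10A all called leads are red, whereas in DCIS the blue leads lie mainly in the rows of the MYC domain, with 7 genes over 4 distinct regions, and of the extracellular matrix, with 4.

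On 8p, the loci described as tumour suppressors or death receptors had up leads or no call. Of 15 genes with a region, 12 had an up lead in 10A, 80%, and 8 in DCIS, 53.3%, where 77.5% and 42.6% of the tested coding genes of 8p had an up region, and none had a down lead. TUSC3, an oligosaccharyltransferase subunit, rose by 1.04 in 10A and by 3.10 (FDR 1.36e-06) in DCIS. DLC1 had 11 of 32 regions up in 10A and 9 of 20 in DCIS. Among the TRAIL receptors, TNFRSF10A rose by 1.50 (FDR 5.01e-05) in 10A and had 1.08 (FDR 0.0721) in DCIS, and the decoy receptor gene TNFRSF10D rose by 0.79 and 1.89. TNFRSF10B had up leads of 1.35 and 1.57, although in DCIS the region nearest its start site had -0.14. CSMD1 and ARHGEF10 had no tested region in either line.

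In the FGFR1 segment, 15 of 19 genes had an up lead in 10A, 78.9%, and 10 of 19 in DCIS, 52.6%, against the same 77.5% and 42.6%. None had a down lead, and in 10A 4 of the 15 (ASH2L, BAG4, DDHD2 and LSM1) lay at or below the line median. The receptor gene FGFR1 shared its lead with its neighbour LETM2. That lead rose by 1.10 (FDR 4.46e-05) in 10A and by 2.78 (FDR 8.07e-10) with 32 of 32 windows up in DCIS, where the region nearest the FGFR1 start had -0.14. NSD3, a histone H3 lysine methyltransferase, rose by 1.59 and 2.79, and IKBKB, a kinase that activates NF-kB, by 1.21 and 1.55. KAT6A, BRF2 and PLPBP passed the threshold in neither line.

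Genes of 8q21 to 8q24 that are often gained in breast cancer differed between the lines in their calls. In 10A 17 of 19 with a region had an up lead, where 69.9% of the tested coding genes of 8q had an up region, and those of BOP1, HSF1 and PTK2 were among the leads at or below the line median. In DCIS 6 of 20 had an up lead, 30%, near the 32.1% of 8q genes with an up region, none had a down lead, and over the 73 regions of the list the median was -0.0068. The 6 were TPD52, RRM2B, FBXO32, NDRG1, PTK2 and ESRP1. PTK2, the gene of focal adhesion kinase, had an up lead of 2.10 (FDR 0.00189) in DCIS, where the region nearest its start had -0.79, and rose by 0.67 in 10A, which is below the line median. For TPD52 the DCIS region nearest the start had -0.60. ESRP1, a splicing regulator of epithelial cells, rose by 2.13 (FDR 1.51e-06) in DCIS and had 0.96 (FDR 0.29) in 10A. MTDH, YWHAZ, RAD21 and EIF3H were up in 10A and not called in DCIS. The difference between the lines was not tested.

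Among transcription factors and coregulators, 12 of 16 had an up lead in 10A, 75%, and 7 of 18 had an up lead in DCIS, 38.9%, and 1 a down lead. These shares are near the 72.5% and 35.6% of all tested coding genes of the chromosome with an up region. SNAI2, which encodes the repressor Slug, had both 10A regions up, the lead at 1.37 (FDR 3.25e-07) with 39 of 40 windows up. In DCIS 1 of its 3 regions was up, at 1.78 (FDR 0.0476) with 1 of 22 windows up, and none lay over a marked region. TOX had up leads of 1.12 in 10A, where the region nearest its start had -0.30, and of 2.97 (FDR 6.57e-06) in DCIS. ZFPM2, a GATA cofactor, had 2 up regions in DCIS, the highest at 3.76 (FDR 1.68e-10), and 2 down. KLF10, a gene induced by TGF-beta, had 3 of 3 regions up in 10A and 0 of 2 in DCIS. EYA1, tested in DCIS alone, had the down lead at -2.20 (FDR 0.0019). CEBPD rose by 0.91 (FDR 0.0102) in 10A and had -0.68 (FDR 0.95) in DCIS, and GRHL2 had -0.94 (FDR 0.219) in 10A and an up lead of 2.33 in DCIS, where the region nearest its start had -0.032.

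Matrix genes moved in both directions in DCIS, whereas the called leads of secreted and growth signalling genes were up except for 1. Of the matrix list, 8 of 9 genes had an up lead in 10A, where 72.5% of all tested coding genes of the chromosome had an up region. In DCIS 7 of 12 had an up and 4 a down lead, 58.3% and 33.3%, where 35.6% and 10.1% of those coding genes had such a region. The 4 were SDC2, COL14A1 (-2.70), MMP16 (-2.03), a membrane-bound metalloproteinase, and HAS2 (-1.86), which makes hyaluronan. MMP16 and HAS2 rose in 10A, by 1.06 and 1.10. Beside LOXL2, COL22A1 rose by 3.34 (FDR 1.84e-06) in DCIS and had no tested region in 10A, and CTSB, the gene of cathepsin B, rose by 1.41 and 1.54. Over the 62 regions of the list in 10A 61.3% were up, and over the 81 in DCIS 28.4% were up and 17.3% down. Of the secreted and growth signalling genes, 9 of 12 had an up lead in 10A, 75%. In DCIS 7 of 14 had an up lead, 50%, and 1 a down lead, 7.14%. The shares of all tested coding genes with an up region were the same 72.5% and 35.6%, and 10.1% had a down region in DCIS. Over the 66 regions of this list in DCIS, 50% were up and 1.52% down. Beside NRG1, PLAT, the gene of tissue plasminogen activator, had up leads of 1.76 and 1.78, although in DCIS the region nearest its start had -0.12. BMP1, a procollagen proteinase, rose by 1.10 in 10A with 4 of 7 regions up in DCIS, and LYN, a Src family kinase, by 0.95 and 2.14. The down lead was that of the vessel ligand ANGPT1, at -1.53 (FDR 0.00623).

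The LY6 genes of 8q24.3 were tested at few places. In 10A 2 of 3 and in DCIS 3 of 4 with a region had an up lead, where 72.5% and 35.6% of all tested coding genes of the chromosome had an up region. PSCA rose by 0.83 in 10A and 1.91 (FDR 2.42e-06) in DCIS, and LY6K by 0.82 and 1.39. Of the epithelial barrier and lipid genes, 3 of 8 had an up lead in 10A, 37.5%, below the same 72.5%. In DCIS 4 of 8 had an up and 1 a down lead, 50% and 12.5%, against 35.6% and 10.1% of the coding genes. The down lead was that of CA2, carbonic anhydrase 2, at -1.69 (FDR 0.00285). None of the 9 listed defensin genes of 8p23 had a tested region in either line.

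Where a region was tested at the same place in both lines, a call in both lines mostly had the same sign, with most calls up in each line. Pairs were formed by taking, for each 10A region, the DCIS region of largest overlap in bases, which gave 1595 pairs. Of these, 282 were up in both lines and 1 was down in both. A gain in 10A met a loss in DCIS in 20 pairs, and the opposite was seen in 3, so that 283 of 306 pairs called in both lines, 92.5%, had the same direction. Of the 306, 98.7% were up in 10A and 93.1% up in DCIS, so that most of this share follows from the calls of each line alone. Relative to the 2 line medians this share was 85.9%. The sizes were weakly related, with a Spearman correlation of 0.141 and a Pearson correlation of 0.152 across the 1595 pairs, which are neighbours on 1 chromosome and not replicates. On 8p 126 of 548 pairs were up in both lines and on 8q 156 of 1047. A further 425 pairs were up in 10A and not called in DCIS, and 262 were up in DCIS and not called in 10A.

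**Figure D5:**
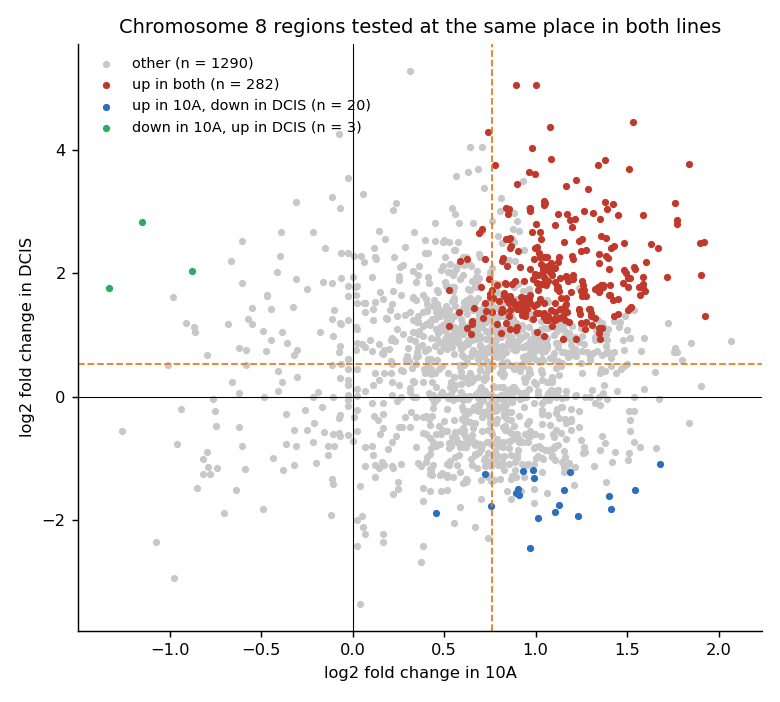
Each point is a pair of overlapping regions, plotted by its log2 fold change of shANCO1 over shCTRL in 10A (horizontal) and in DCIS (vertical), with the line medians as orange dashes. The 282 pairs up in both lines (red) lie in the upper right, the 20 up in 10A and down in DCIS (blue) in the lower right and the 3 of the opposite kind (green) in the upper left, and grey points are all other pairs.

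The pairs with the largest gain in both lines lay in XKR4 (1.92 in 10A and 2.50 in DCIS), in LOC254896 beside the TRAIL receptors (1.90 and 1.97), in an intron of PTK2B (1.90 and 2.49), in RP1 (1.84 and 3.78) and at chr8:54150401-54154700 (1.77 and 2.79), 15160 bp from the TSS of MRPL15. The pair down in both lines lay in LINC01592, at -1.08 and -2.36. Besides NRG1, the pairs down in 10A and up in DCIS were those in PARP10 (-1.33 and 1.77) and at chr8:40205501-40205700 (-0.88 and 2.04). The 20 pairs up in 10A and down in DCIS included promoters and start sites. The shared promoter of CCNE2, which encodes cyclin E2, and NDUFAF6 had 1.19 in 10A and -1.22 in DCIS. ZBTB10 had 1.13 and -1.76, HAS2 1.10 and -1.86, the CSPP1 and COPS5 promoter 0.99 and -1.32, MROH1 0.90 and -1.50, and TRIB1, a pseudokinase gene of 8q24, 0.89 and -1.57. Other pairs of this kind were 3 near ASPH and 2 within DPYSL2, at 1.68 and -1.10 and at 0.97 and -2.46. The deposited annotation marks both DPYSL2 pairs, and the ASPH pair at chr8:61718701-61719500, as promoters. Of the 20, the pair over CCAT2 and the pair downstream of MYC lay below the line median in 10A, as did a pair upstream of DUSP4 at 0.72. The difference between the lines could not be tested here without a value per library.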

How the data were processed

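By the study's methods, alignment to GRCh38 of read pairs used BWA and Rsubread, samtools took out duplicates, and the authors tested windows in csaw and annotated the regions with ChIPpeakAnno. The submitters' processing notes also name FastQC and HOMER. How windows were normalized, filtered and merged, and which input libraries were used, was not stated. The deposited log2 fold change is the authors' value for a representative window of each region. The deposited p-value and FDR are the authors' own, adjusted table by table. The deposited score columns count tested windows per region, and windows up or down, not reads. These columns are the authors' own comparisons and the tables hold nothing else, so they were used. No value per library was analysed here, and depth is unknown.

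Regions with chromosome name 8 were taken from 6 tables with Python 3.11.15, pandas 2.3.3, numpy 2.4.6 and scipy 1.17.1. Calls used FDR under 0.05 and the deposited direction. The arms were split at 45 Mb. Genes were GENCODE release 44 bodies with 5 kb upstream, a region belonged to a gene by overlap, and a TSS had 1 kb on each side. Overlap was at least 1 bp. All regions fit within the hg38 length of the chromosome. Named regions were the 5 with the largest change in each direction among those with at least 5 windows, the regions of lowest FDR, and the strongest and widest regions over input. Named genes came from the lists and from the genes with most called regions. The members, lists and comparisons were chosen with earlier results of these data known. The overlap and coverage steps were tested on simulated intervals, and the other steps were not. Alternatives were other FDR limits, a minimum change, at least 5 windows, centring on the line median, other overlaps and the region nearest the start site. No sequence is printed for these regions.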

Additional observations from a re-analysis of the deposited data

Results flagged for a closer look

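Opposite calls in the 2 lines were singled out for a closer look. At 20 places a 10A gain lay over a DCIS loss, and at 3 places a 10A loss lay over a DCIS gain. Such places were not counted over all chromosomes, so these numbers are not shown to be particular to chromosome 8. The 20 comprised 6 on 8p and 14 on 8q, and 2 of them lay between 127 and 128 Mb, around MYC. Of the 3, 2 lay on 8p, in NRG1 and beside TCIM, and 1 on 8q, in PARP10. In 10A their FDRs ran from 0.0192 to 0.0424, so none of the 3 passed an FDR of 0.01. The difference between the lines was not tested, because the tables hold no value per library.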

How the results depend on the processing

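No paired analysis was possible because the deposited tables hold no value per library, and for the same reason no replicate could be left out. Of the values that answer a comparison, 51 recomputed values stayed within 1.5 times the count, or within the 95% interval of the share or median over regions, and 46 moved beyond it. The interval treats regions as independent, which neighbours on 1 chromosome are not, so it served only as a yardstick and measures no spread between libraries.

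At an FDR under 0.01, 10A had 587 up and 1 down regions on chromosome 8, with 28.3% up on 8p and 22.1% on 8q, and DCIS had 104 down regions, with 21.9% up on 8p and 15.6% on 8q. At an FDR under 0.1, 10A had 15 down regions and 56.6% up on 8p and 46.2% on 8q, and DCIS 37.3% and 25.3%. Requiring a log2 fold change of 1 or more in size, 10A had 624 up regions, 29.0% up on 8p and 24.1% on 8q. Counting only changes at least 1 from the line median left 25 up regions in 10A, 1.22% of 8p and 0.936% of 8q, and in DCIS 21.9% of 8p and 14.9% of 8q. With at least 5 windows, 10A had 5 down regions, 56.6% up on 8p, 50% on 8q and a median of 0.85, and DCIS had 456 up regions and a median of 0.52. Weighting by bases gave 61.5% up on 8p, 53.7% on 8q and a median of 0.85 in 10A, and regions enriched over input gave a median of 0.89. Under each of these the percent up stayed higher on 8p than on 8q in both lines where it was recomputed. Without 120 to 130 Mb, chosen after seeing the data, 24.1% of 8q was up in DCIS.

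Of the regions enriched over input, those with at least 5 windows numbered 614 and 229 in 10A shANCO1 and shCTRL cells and 402 and 431 in DCIS, and an FDR under 1e-10 left 939 and 313 in 10A and 781 and 560 in DCIS. With 50% of the changed region covered, 35.7% of 10A up, 11.4% of DCIS up and 24.1% of DCIS down regions lay over the respective marks, and with an FDR under 1e-10 for enrichment 57.7%, 32.6% and 37.2%. Centring on the line medians took the same-direction share of pairs called in both lines to 85.9%.

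With the region nearest the TSS in place of the lead, 20 listed genes were up and 4 down in DCIS. The sign turned in 10A for RECQL4 (-0.25) and TOX (-0.30). It turned in DCIS for the up genes FGFR1 (-0.14), GRHL2 (-0.032), MSRA (-0.55), PLAT (-0.12), PTK2 (-0.79), PVT1 (-0.55), SQLE (-0.023), SULF1 (-0.32), TACC1 (-1.23), TNFRSF10B (-0.14) and TPD52 (-0.60), and for the down genes CASC19 (0.66), CASC8 (0.012) and CCAT2 (1.54). A further 54 leads, of 44 genes in 1 or both lines, kept the sign and lost the call. The cause was not tested. Depth is unknown, so a region not called is not shown to be unchanged.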
